A study of Danio rerio with 4 samples.

Results

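The genes described here are the DNA replication and mitosis genes of zebrafish (Danio rerio), as measured in liver RNA. They were taken by their symbols: the minichromosome maintenance (mcm), origin recognition (orc) and gins genes, the cdc6, cdc7, cdc20, cdc25 and cdc45 patterns, cyclins A, B and E, cdk1 and cdk2, the centromere (cenp), bub, aurora (aurk) and polo-like (plk) genes, the replicative polymerases pola, pold and pole, the rfc and rpa genes, pcna, uhrf1, h2ax, top2a and the cdca genes. These patterns found 76 genes, read by 123 probes, of 15554 named genes and 43603 probes on the array. The cadmium dose was 0 µM for the control RNAs and 5 µM for the cadmium RNAs, and all were of day 4. Control replicates 2 and 3 and cadmium replicates 1 and 2 gave 4 RNAs, which were set against each other on 4 two-colour Agilent arrays in a closed loop. Each array held 1 control and 1 cadmium RNA, and each RNA carried the Cy5 dye on one array and the Cy3 dye on another. The sources used here give no strain, sex, age or exposure route of the fish, nor whether an RNA came from 1 fish or from several. The µM unit is that of the series' design text, while the RNA labels write degrees C beside the same numbers.

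Cells copy their DNA once per division. The origin recognition complex and Cdc6 load the Mcm helicase onto DNA, Cdc7 and cyclin-dependent kinases start it, and polymerases with the PCNA clamp follow the opened fork. Cyclin B with Cdk1, the aurora and polo-like kinases and the centromere proteins then carry the chromosomes through mitosis. Most hepatocytes of an adult liver rest outside the cell cycle, whereas growing oocytes store large amounts of cell cycle RNA for the first divisions of the embryo.

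The authors deposited a log ratio of the dyes for each probe and array, read here as base 2, which the sources do not state. The 4 ratios of a probe were solved for the RNAs' differences and a dye effect. Values below are log2 values of an RNA relative to the mean of the 2 control RNAs, so the controls lie at equal distances on either side of 0. They compare RNAs for a gene and hold no level, so genes cannot be ranked by abundance. The ratio was read as Cy5 over Cy3, which is likely but not stated in the sources used here. Under the opposite reading every sign below turns, cadmium replicate 2 would be low where it is called high, and sizes and p-values stay. The spread of log2 ratios over all probes was wider on the arrays with cadmium replicate 2 (SD 0.388 and 0.353 on arrays 3 and 4) than on those with cadmium replicate 1 (0.198 and 0.230 on arrays 1 and 2).

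The DNA replication and mitosis genes lay high in one cadmium RNA and slightly low in the other. The 76 genes had a median of 0.69 in cadmium replicate 2. In cadmium replicate 1 it was -0.15, and in control replicates 2 and 3 it was -0.06 and 0.06. Cadmium replicate 2 was the highest of the 4 RNAs for 66 of the 76 genes, where 38.7% of all genes had it highest. Cadmium replicate 1 was the lowest for 52 of them, against 25.8% of all genes. Both held for 51 genes, against 17.7% of all genes. The 2 cadmium RNAs therefore stood on opposite sides of the controls for most of this machinery.

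The distance between the cadmium RNAs exceeded that between the controls. Cadmium replicate 2 exceeded cadmium replicate 1 by over 0.5 for 51 of the 76 genes, against 11.3% of all genes, and by over 1 for 28, against 3.57% of all genes. It lay under replicate 1 by over 0.5 for 0 of them, against 5.72% of all genes. The median difference between the cadmium RNAs was 0.85 over the 76 genes and 0.02 over all genes. By contrast, the control RNAs were apart by over 0.5 for 4 of the genes (ccna1, ccna2, cdc6 and top2a), against 3.09% of all genes, with control replicate 3 the higher in each. With 1 RNA on each side these differences have no test.

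**Figure D1:**
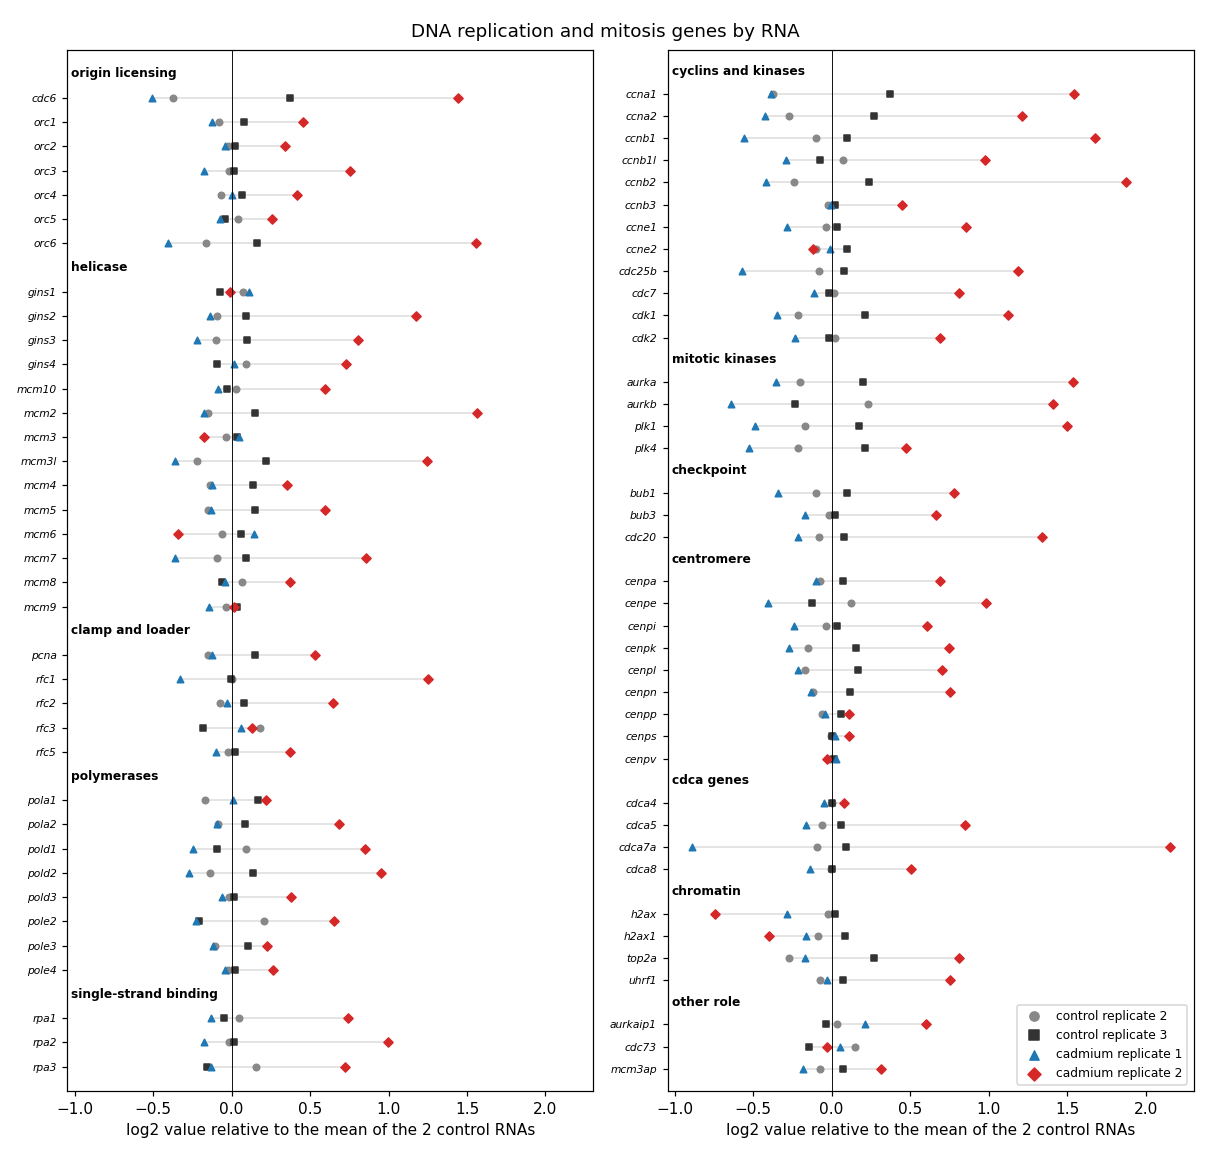
Log2 value of each of the 76 genes in the 4 RNAs, relative to the mean of the control RNAs (horizontal axis), with genes grouped by role (vertical axis) and 1 symbol per RNA. Cadmium replicate 2 lies to the right of both controls for 66 genes, and cadmium replicate 1 is the leftmost RNA for 52.

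Between cadmium and control, no member passed the test. In the comparison of 2 cadmium with 2 control RNAs by limma, fitted over all 15554 genes, 0 of the 76 had an adjusted p under 0.05 (0% of all genes did), and the smallest adjusted p was 1.00. At an unadjusted p under 0.05 there were 0 members, while 1.07% of all genes were higher and 0.945% lower. The difference, cadmium minus control, was above 0 for 68 members, against 56.9% of all genes, with a median of 0.25 against 0.02 (0.14 for the members after quantile normalization of the arrays). Its range was -0.51 to 0.73. The median standard error (SE) was 0.32 over the members and 0.12 over all genes, and the difference was larger in size than its own SE for 11 of the 76.

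Few members separated the groups. On all 4 arrays aurkaip1 was higher in cadmium, 1 gene of 76 where 7.99% of all genes were, and h2ax and h2ax1 were lower, 2 of 76 where 6.9% of all genes were. Both cadmium RNAs lay above both controls for 2 members (aurkaip1 and cenps), against 11.7% of all genes, and below both for 2 (h2ax and h2ax1), against 10.2%. As shares of the 76 genes these counts lie under the background.

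The outcome of the comparison rested on which cadmium RNA was kept. Without cadmium replicate 1, 42 members were higher and h2ax lower at an adjusted p under 0.05 in limma, where 6.88% of all genes were higher and 2.48% lower, and the median difference was 0.69. Without cadmium replicate 2, limma called 0 members (9 had an unadjusted p under 0.05, against 4.96% of all genes), 11 were higher and the median was -0.15. In each of these fits the lone cadmium RNA is assumed to vary as the 2 controls do.

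**Figure D2:**
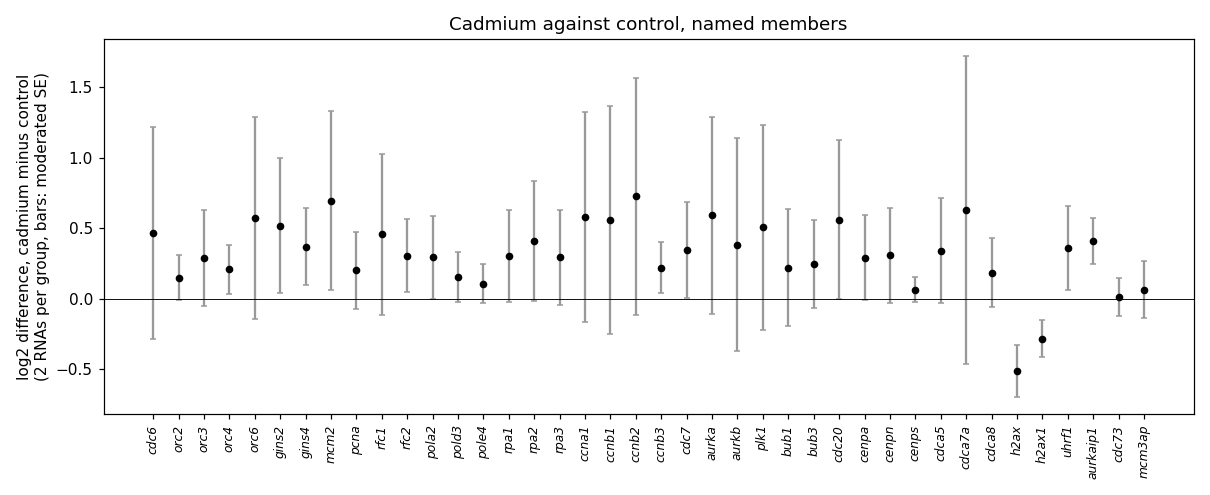
Log2 difference, cadmium minus control (vertical axis, points), with bars of 1 moderated SE from 2 RNAs per group, for 40 genes. These were chosen in each role by the largest difference relative to its SE, or by the distance between the cadmium RNAs. Most bars cross 0, and 11 do not, among them those of h2ax and h2ax1 below 0 and that of aurkaip1 above. The choice by role favours such bars: the 11 are all of the 76 genes whose difference exceeded its SE.

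Oocyte genes had the same order across the 4 RNAs. A list of ovary and oocyte markers, chosen with earlier results of these data known, had 34 measured genes. Of these, 29 peaked in cadmium replicate 2, against 38.7% of all genes. In 26 of them cadmium replicate 1 was also lowest, where both held for 17.7% of all genes. The medians of the 34 genes were -0.37 in cadmium replicate 1 and 1.44 in cadmium replicate 2, against -0.14 and 0.14 in the controls. These medians had the same order of RNAs as those of the replication genes, at a greater distance.

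The egg coat gene zp3 lay at -0.28 and 0.28 in control replicates 2 and 3, at -0.61 in cadmium replicate 1 and at 2.38 in cadmium replicate 2. In the same order zp2.5 lay at -0.17, 0.17, -0.51 and 2.07, org at -0.14, 0.14, -0.58 and 2.04, and zgc:173770 at -0.03, 0.03, -0.53 and 2.39. All 10 measured zona pellucida genes, which encode the egg coat, were higher in cadmium replicate 2 than in replicate 1, by 0.85 to 2.99. Most genes of the somatic cells of the ovary did not share this order, though the plan had not set them apart from the list. The genes foxl2a, cyp19a1a, amh, star and hsd3b1 differed between the cadmium RNAs by -0.37 to 0.05. At the upper end, hsd3b1 was highest in cadmium replicate 2 by a narrow margin, at 0.070 against 0.063 in control replicate 2. Among the list's remaining genes h1-10 lay the other way, at -0.43.

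The part of oocyte RNA in the values of the replication and mitosis genes was not tested. Ratios give no summed level of the list in a group, nor whether a marker was at 0. In bulk RNA, more cells of a type and more RNA per cell cannot be told apart.

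Of the lists for the other cell types, 1 gene (pax5, a leukocyte marker) was both highest in cadmium replicate 2 and lowest in cadmium replicate 1. Both held for 17.7% of all genes, and pax5 lay close to its controls, at -0.04 and 0.02 in cadmium replicates 1 and 2. The 16 hepatocyte genes had medians of 0.13 and -0.04 in cadmium replicates 1 and 2, the 10 red cell genes 0.03 and -0.14, the 14 leukocyte genes -0.04 and -0.15, and the 7 bile duct genes -0.26 and -0.15. Of the bile duct genes, epcam alone was highest in cadmium replicate 2, at 1.50, with cadmium replicate 1 at 0.26 and the controls at 0.49 and -0.49. The 14 pancreas genes separated the controls, at 0.75 and -0.75 in replicates 2 and 3, and lay at 0.16 and 0.50 in the cadmium RNAs.

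**Figure D3:**
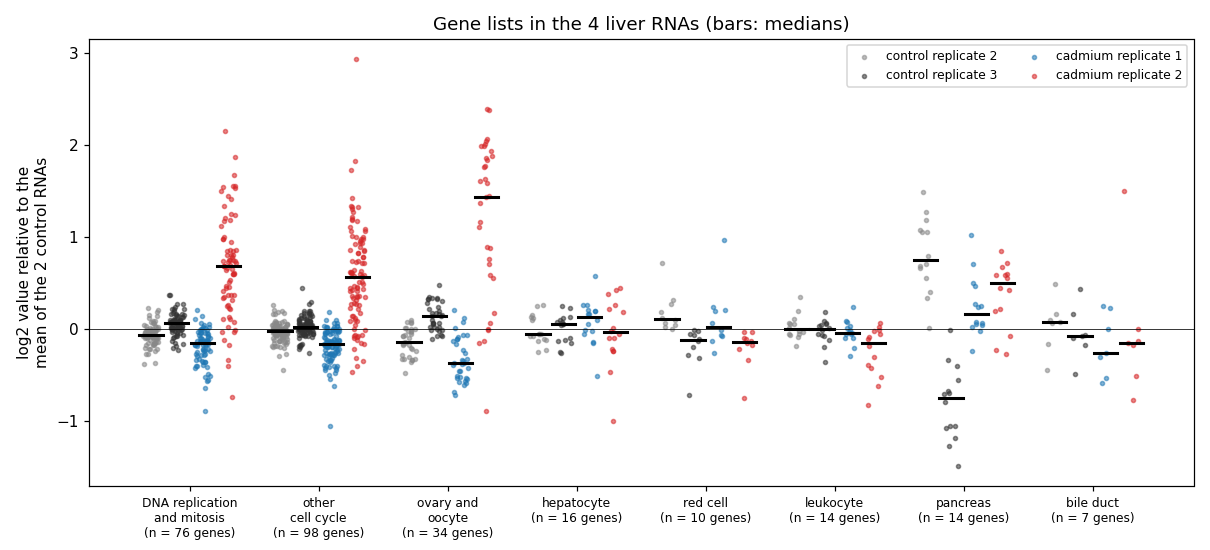
Log2 values relative to the mean of the control RNAs (vertical axis) for the genes of each list (horizontal axis), with 1 point per gene and RNA and bars at the medians. The replication and mitosis genes, the other cell cycle genes and the ovary and oocyte markers are high in cadmium replicate 2, with medians of 0.69, 0.57 and 1.44.

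Among the genes that license origins, all 7 were highest in cadmium replicate 2 and 6 were lowest in cadmium replicate 1. The gene orc6, a subunit of the origin recognition complex, lay at -0.16 and 0.16 in control replicates 2 and 3, at -0.40 in cadmium replicate 1 and at 1.56 in cadmium replicate 2. For cdc6, the loader of the Mcm helicase, the controls lay at -0.37 and 0.37 and the cadmium RNAs at -0.51 and 1.45. In both genes the cadmium RNAs enclosed the controls, and the differences between the groups, 0.58 ± 0.72 and 0.47 ± 0.75 (SE, n = 2 RNAs per group), were smaller than their errors. The other origin recognition subunits were closer together. From cadmium replicate 1 to 2, orc3 went from -0.17 to 0.75, orc4 from 0.00 to 0.42 and orc2 from -0.04 to 0.34. The single probe of orc2 also had the strongest dye effect of the members, 0.39.

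The helicase genes divided. Of 14 genes, 10 were highest in cadmium replicate 2, led by mcm2, a subunit of the ring that opens DNA. It lay at -0.15 and 0.15 in the controls, at -0.17 in cadmium replicate 1 and at 1.56 in cadmium replicate 2, a difference of 0.70 ± 0.63 (SE, n = 2 per group). The gins2 gene, which encodes a subunit of the complex that joins the ring at the fork, lay at -0.13 and 1.17 in the cadmium RNAs with controls at -0.09 and 0.09. For gins4, of the same complex, the cadmium RNAs lay at 0.01 and 0.73 and the controls at 0.09 and -0.09, so only replicate 2 stood outside the controls.

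The ring subunits did not share one order of RNAs. The genes of the ring other than mcm2 are named after their values were seen. In cadmium replicates 1 and 2, mcm4 lay at -0.13 and 0.35, mcm5 at -0.13 and 0.60, and mcm7 at -0.36 and 0.86. The other two subunits lay the other way: mcm3 at 0.05 and -0.17, with controls at -0.04 and 0.04, and mcm6 at 0.14 and -0.34, with controls at -0.06 and 0.06. For both, on the mean over probes, cadmium replicate 2 was the lowest RNA and cadmium replicate 1 the highest. The 2 probes of mcm3 disagreed, however. In cadmium replicates 1 and 2, 1 probe lay at 0.18 and -0.40, and the other at -0.09 and 0.06, the order of most members. A second gene of the mcm3 kind, mcm3l, lay at -0.36 and 1.24, as mcm2 did. RefSeq's gene table lists the synonym MCM3m for mcm3l (gene ID 100147915) and the synonyms MCM3z and MCM6z for mcm3 (192323) and mcm6 (566409). Whether a probe of one mcm3 gene also binds RNA of the other was not tested. In the frog Xenopus, maternal forms of Mcm3 and Mcm6 serve the egg and early embryo, and zygotic forms take over later. Whether the zebrafish genes are used in this way was not tested. The difference between the groups was -0.06 ± 0.11 for mcm3, -0.10 ± 0.20 for mcm6 and 0.44 ± 0.60 for mcm3l (SE, n = 2 per group).

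**Figure D4:**
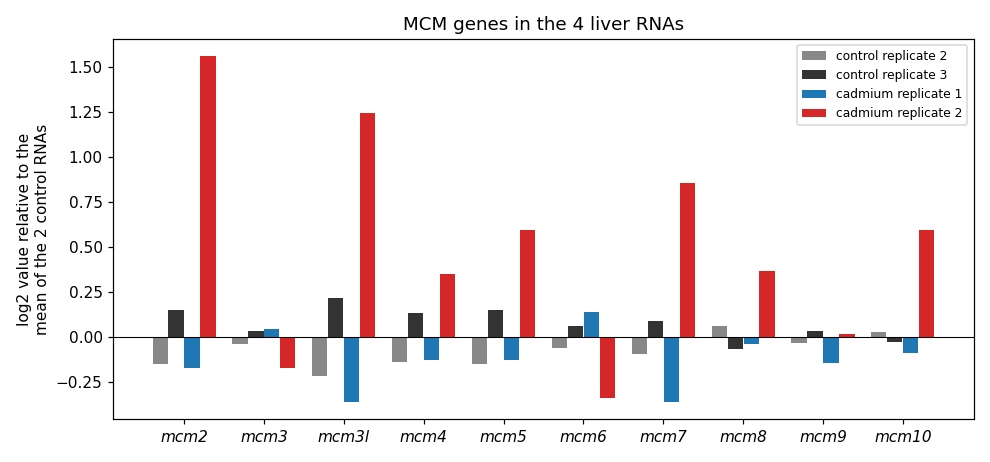
Log2 value relative to the mean of the control RNAs (vertical axis) of 10 mcm genes (horizontal axis), with 1 bar per RNA and no error, since each bar is 1 RNA. The bar of cadmium replicate 2 points up to 1.56 for mcm2 and 1.24 for mcm3l, and down to -0.17 for mcm3 and -0.34 for mcm6. The bars of mcm3 are means over 2 probes with opposite orders of the cadmium RNAs.

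Of the 5 clamp and loader genes, 4 were highest in cadmium replicate 2 and 2 were also lowest in cadmium replicate 1. The clamp gene pcna lay at -0.15 and 0.15 in the controls, at -0.13 in cadmium replicate 1 and at 0.53 in cadmium replicate 2. Of the loader genes, rfc1 went further, to -0.33 and 1.25, with both controls within 0.01 of 0. The loader gene rfc2 lay at -0.03 and 0.64. For rfc1 the cadmium RNAs enclosed the controls, whereas for pcna and rfc2 replicate 1 lay between them. For rfc3, also of the loader and named after its values were seen, both cadmium RNAs, at 0.06 and 0.13, lay between the controls at 0.18 and -0.18.

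All 8 polymerase genes were highest in cadmium replicate 2, and 7 were lowest in replicate 1. The gene pola2, of the polymerase that lays primers, lay at -0.09 and 0.68 in the cadmium RNAs, and pold3, of the lagging strand polymerase, at -0.06 and 0.38. The small subunit gene pole4 lay at -0.04 and 0.26. Their differences between groups, 0.30 ± 0.30, 0.16 ± 0.18 and 0.11 ± 0.14 (SE, n = 2 per group), did not exceed their errors.

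The 3 genes of replication protein A, which coats single-stranded DNA, went together. In cadmium replicates 1 and 2, rpa1 lay at -0.13 and 0.74, rpa2 at -0.18 and 1.00, and rpa3 at -0.13 and 0.72. Replicate 2 stood above both controls in each. For rpa3 cadmium replicate 1 lay next to control replicate 3, which was at -0.16.

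The group of cyclins and kinases, which also holds cdc7 and the phosphatase gene cdc25b, showed greater distances than the helicase genes. Over the 12 genes the median difference between the cadmium RNAs was 1.37, against 0.70 over the helicase genes, and 11 of the 12 were highest in cadmium replicate 2. The mitotic cyclin gene ccnb2 lay at -0.24 and 0.24 in control replicates 2 and 3, at -0.42 in cadmium replicate 1 and at 1.87 in cadmium replicate 2. That places cadmium replicate 2 at 3.67 times the control mean, and the difference between the groups was 0.73 ± 0.84 (SE, n = 2 per group). In ccnb1, another mitotic cyclin, the controls lay at -0.10 and 0.10 and the cadmium RNAs at -0.56 and 1.68. For ccna1, a cyclin A known from the germ line in mammals, the controls were already apart, at -0.37 and 0.37, with the cadmium RNAs at -0.39 and 1.54. The order of the 2 controls was the same in these 3 genes, with replicate 3 above replicate 2.

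Other members of this group were closer to the controls. The B-type cyclin ccnb3 lay at -0.01 and 0.45 in the cadmium RNAs, and cdc7, the kinase that starts the loaded helicase, at -0.11 and 0.81. Seen after their values were known, cdk1, the partner of cyclin B, lay at -0.35 and 1.12, and cdk2 at -0.23 and 0.69. The paired E cyclins, which act at the start of DNA synthesis, differed, also as chosen after the values were seen: ccne1 lay at -0.28 and 0.86, and ccne2 at -0.01 and -0.12, within or next to its controls at -0.10 and 0.10. Each of these 2 genes was read by 1 probe.

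The kinases of mitosis had the highest median distance between the cadmium RNAs of the groups of role, 1.94 over 4 genes. The gene aurka, an aurora kinase of the spindle poles, lay at -0.20 and 0.20 in the controls and at -0.35 and 1.54 in the cadmium RNAs. For plk1, a polo-like kinase of mitotic entry, the controls lay at -0.17 and 0.17 and the cadmium RNAs at -0.49 and 1.50. For aurkb, the aurora kinase of the chromosomal passenger complex, they lay at 0.23 and -0.23, and at -0.64 and 1.41. In the 3 genes the cadmium RNAs were the 2 extremes, and their group differences ran from 0.39 to 0.59 with SEs of 0.70 to 0.76. The centriole kinase gene plk4, named after its values were seen, lay at -0.52 and 0.47, so its group difference was -0.03 ± 0.40 (SE, n = 2 per group).

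Checkpoint genes and the activator of the anaphase-promoting complex had the same order. That activator, cdc20, lay at -0.08 and 0.08 in the controls, at -0.22 in cadmium replicate 1 and at 1.34 in cadmium replicate 2. The spindle checkpoint genes bub1 and bub3 lay at -0.34 and 0.78 and at -0.17 and 0.67 in the cadmium RNAs. All 3 had both controls between the cadmium RNAs.

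Of the 9 centromere genes, 8 were highest in cadmium replicate 2. The gene cenpa, which encodes the histone H3 variant of centromeres, lay at -0.07 and 0.07 in the controls and at -0.10 and 0.69 in the cadmium RNAs. Of the proteins built on it, cenpn lay at -0.13 and 0.75 in the cadmium RNAs. The mitotic motor gene cenpe, named after its values were seen, reached from -0.40 to 0.98. In contrast cenps lay at 0.02 and 0.11 in the cadmium RNAs.

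The cdca genes held the greatest distance of all members. The gene cdca7a, of a chromatin protein that in mammals works with the remodeller Hells, lay at -0.09 and 0.09 in the controls, at -0.89 in cadmium replicate 1 and at 2.15 in cadmium replicate 2. Cadmium replicate 2 was 8.26 times replicate 1 for this gene and 4.45 times the control mean. Its group difference was 0.63 ± 1.09 (SE, n = 2 per group), from 1 probe. The cohesion gene cdca5 (sororin) lay at -0.16 and 0.85, and cdca8 (borealin), of the chromosomal passenger complex, at -0.14 and 0.51.

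Both h2ax genes departed from most members. The variant histone H2AX marks broken DNA in its phosphorylated form, which RNA does not measure. The h2ax gene lay at -0.02 and 0.02 in the controls, at -0.28 in cadmium replicate 1 and at -0.74 in cadmium replicate 2. Its difference was -0.51 ± 0.18 (SE, n = 2 per group; limma unadjusted p = 0.051, adjusted p = 1.00), lower on all 4 arrays by 0.25 to 0.76, and its 2 probes were both lower. The h2ax1 gene lay at -0.09 and 0.09 in the controls and at -0.16 and -0.40 in the cadmium RNAs, a difference of -0.28 ± 0.13. Cadmium replicate 2 was thus the lowest RNA for these genes, as it also was for ccne2, cenpv, mcm3 and mcm6. Of the other 2 chromatin genes, uhrf1, which helps copy DNA methylation to new strands, lay at -0.03 and 0.75 in the cadmium RNAs, a difference of 0.36 ± 0.30. The DNA topoisomerase gene top2a, named after its values were seen, lay at -0.17 and 0.81 with controls at -0.27 and 0.27.

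The patterns also took in 3 genes that were set apart because each has another known role. The aurkaip1 gene, which in mammals encodes a protein of the mitochondrial ribosome, lay at 0.03 and -0.03 in the controls and at 0.21 and 0.60 in the cadmium RNAs, a difference of 0.41 ± 0.16 (SE, n = 2 per group; limma unadjusted p = 0.068, adjusted p = 1.00). For mcm3ap, of messenger RNA export, the cadmium RNAs lay at -0.18 and 0.32. For cdc73, of the Paf1 complex of transcription, they lay at 0.05 and -0.03, inside the controls at 0.15 and -0.15. Without these 3 genes, 65 of 73 members were higher in cadmium, with a median difference of 0.25, 64 were highest in cadmium replicate 2, and the median difference between the cadmium RNAs was 0.87.

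Cell cycle genes outside the set went the same way. A list of other replication and mitosis genes, chosen with earlier results of these data known, had 98 measured genes. Of these, 0 had an adjusted p under 0.05 in limma. At an unadjusted p under 0.05, 1 was lower, where 0.945% of all genes were. It was the cyclin-dependent kinase inhibitor cdkn1bb (-0.25 ± 0.08, SE, n = 2 per group). The group difference was above 0 for 78 of the 98, against 56.9% of all genes, with a median of 0.18. Cadmium replicate 2 was highest for 77, against 38.7% of all genes. Cadmium replicate 1 was also lowest for 62 of them, where both held for 17.7% of all genes. The median difference between the cadmium RNAs was 0.71. The gmnn gene, for geminin, the inhibitor of licensing, had the greatest distance, with controls at -0.16 and 0.16 and the cadmium RNAs at -1.06 and 2.94. In the cadmium RNAs incenp, of the chromosomal passenger complex, lay at -0.62 and 1.83, stmn1a, for a protein that takes microtubules apart, at -0.40 and 1.73, and the checkpoint gene mad2l1 at -0.50 and 1.31.

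Not every gene of this list had that order. Looked at after the values were seen, the 4 cyclin D genes, which link growth signals to division, differed between the cadmium RNAs by -0.44 to 0.46, with ccnd3 in the order of most members. The 6 measured cdkn genes differed by -0.33 to 0.58, with cdkn3 at the upper end. The regulators of transcription e2f3 and e2f4 lay at -0.13 and -0.32 and at 0.19 and 0.18 in the cadmium RNAs, and the inhibitor gene cdkn1ca at 0.10 and 0.22. The genes with the largest ratio of difference to error on this list thus had small differences, between -0.25 and 0.18, rather than the great distances of gmnn or incenp.

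Single probes gave the same order in most genes. Of the 123 probes of the 76 genes, 106 were higher in cadmium replicate 2 than in replicate 1. The share of all probes with that order was not counted. Over all genes the median difference between the cadmium RNAs was 0.02. Each probe was also fitted on its own with limma, and 0 passed an adjusted p under 0.05 between the groups. At an unadjusted p under 0.05 there were 2 of the 123, where 662 of all 43603 probes passed. Of 35 genes with more than 1 probe, 26 had every probe higher in cadmium replicate 2 than in replicate 1, a count likewise not made over all genes. Probes of some genes lay far apart. Those of bub1, both higher in cadmium replicate 2, differed by 1.94 and 0.30. In cdca8 and pole4 the probes also split in sign, at 1.77, 0.36 and -0.19 and at 1.03, -0.01 and -0.10. For mcm6 all 4 probes were lower in cadmium replicate 2, by 0.03 to 1.1, whereas those of mcm3 disagreed, at 0.15 and -0.58. With the median over probes in place of the mean, the difference between the groups was 0.06 in place of 0.18 for cdca8, 0.03 in place of 0.11 for pole4, -0.06 in place of -0.10 for mcm6 and 0.45 in place of 0.30 for rpa3.

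**Figure D5:**
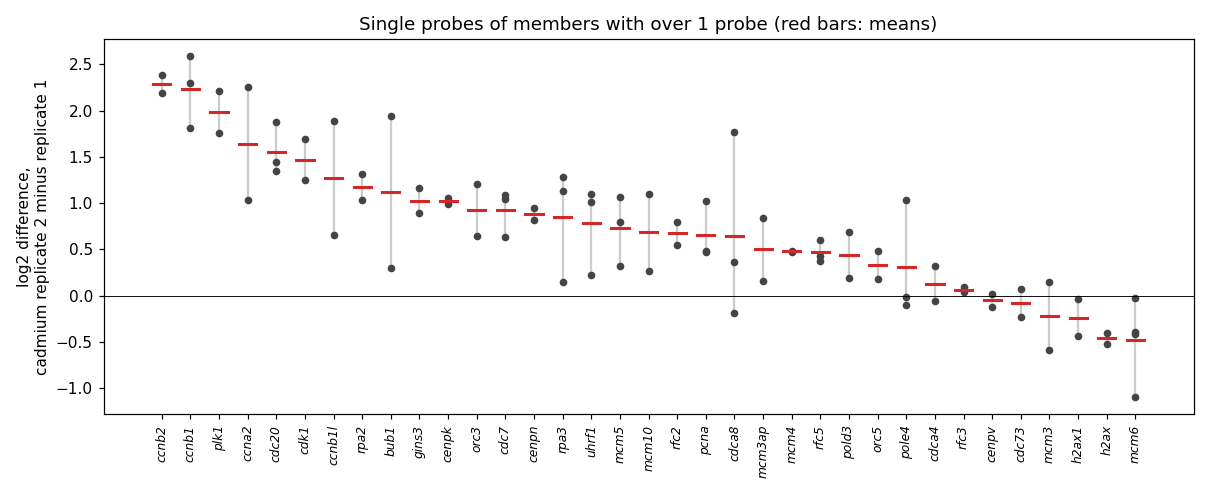
Log2 difference, cadmium replicate 2 minus cadmium replicate 1 (vertical axis), of each probe (points) of the 35 genes with more than 1 probe (horizontal axis), with red bars at the means over probes. Probes of ccnb2, ccnb1 and plk1 lie together above 1.5, and those of bub1, cdca8 and pole4 lie far apart.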

How the data were processed

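The 4 arrays carried 43603 probes with 0 missing values. The authors deposited log2 ratios, and the submitters' processing notes name limma without a version. How background and dye bias were corrected, and which probes were filtered, is not given in the sources used here. Base 2 was assumed, since base 10 would put the largest value, 6.14, beyond a scanner's range. That value does not exclude a natural log, under which the fold values above would differ. The centring method is unknown, with array medians of -7.46e-05, -0.000451, 0.000711 and 0.00373. Over probes, Pearson's r between arrays of the same dye orientation was -0.0427 for arrays 1 and 3 and -0.221 for arrays 2 and 4. The files give no signal over background, and the number of arrays limits the precision.

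The platform's annotation named 23717 probes with 1 symbol, 0 with several and left 19886 unnamed here. Probes of one gene were averaged, which gave 15554 genes. The 2 cadmium and 2 control RNAs were compared with lmFit and eBayes of limma 3.58.1 (R 4.3.3) in a two-sided test, adjusted over all genes by Benjamini-Hochberg. Errors are moderated SEs with 2 residual and 1.91 prior degrees of freedom. A p-value sets the difference between the groups against such an error, which draws on the spread of these RNAs alone. The fit was also tried on simulated data, whose outcome is not given here and bears on no result above.

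The members and lists were chosen with earlier results of these data known. Named were, in each role, the 3 members with the largest moderated t, the 8 with the largest difference between the cadmium RNAs, 4 other cell cycle genes by each measure and 4 ovary markers by that difference. The cyclin gene ccnb1 was counted as a member and left off the ovary list. Another 15 members were named after their values were seen. Other scalings, probe summaries, a filter on spread, arrays as units and leaving out each RNA were tried.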

Additional observations from a re-analysis of the deposited data

How the results depend on the processing

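The 76 genes had 0 adjusted calls under every scaling, probe summary, spread filter and unit of test that was tried. With arrays in place of RNAs as units, 0 members were likewise called, with and without a dye term. Over those alternatives with all 76 genes, 68 stayed above 0, with a median difference of 0.14 (quantile normalization of the arrays) to 0.26 (median over probes), while the median between the cadmium RNAs stayed between 0.71 and 0.87. All 329 values of the 55 named members under these settings kept the sign of the reported difference. The spread filter (54 values) and arrays as units with and without a dye term (55 each) leave a gene's difference unchanged. The sign of those values therefore could not turn. With 1 RNA left out, 167 of 220 values kept the sign. The sizes of the 55 differences moved more. Quantile normalization made 36 smaller by over 1.5 times and 2, plk4 and cdc73, larger. Among the smaller were aurkb (0.385 to 0.103), mcm7 (0.25 to 0.0604), bub1 (0.221 to 0.0693), cdca7a (0.630 to 0.247) and cdc6 (0.468 to 0.206). Scaling the arrays to one spread made 5 smaller and 1 larger by that factor, and the median over probes 3 and 1.

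Leaving out each RNA in turn, 0 to 43 members were called, 11 to 68 were higher and the median difference ran from -0.154 to 0.689, with both extremes from the omission of a cadmium RNA. Of the 55 named differences, 45 turned their sign when cadmium replicate 2 was omitted. Omitting cadmium replicate 1 turned 2, omitting control replicate 2 turned 2 and omitting control replicate 3 turned 4, and the lowest and highest values of those that turned follow. For the origin genes they ran, for cdc6 from -0.51 to 1.45, orc2 from -0.0396 to 0.34, orc3 from -0.17 to 0.75 and orc6 from -0.40 to 1.56. For the helicase genes they ran, for gins2 from -0.13 to 1.17, mcm2 from -0.17 to 1.56, mcm3 from -0.17 to 0.0456, mcm3l from -0.36 to 1.24, mcm4 from -0.13 to 0.35, mcm5 from -0.13 to 0.60, mcm6 from -0.34 to 0.14 and mcm7 from -0.36 to 0.86. For the clamp, loader, polymerase and rpa genes they ran, for pcna from -0.13 to 0.53, rfc1 from -0.33 to 1.25, rfc2 from -0.0288 to 0.64, rfc3 from -0.0872 to 0.28, pola2 from -0.0933 to 0.68, pold3 from -0.0606 to 0.38, pole4 from -0.0443 to 0.26, rpa1 from -0.13 to 0.74, rpa2 from -0.18 to 1.00 and rpa3 from -0.13 to 0.72. For the group of cyclins and kinases they ran, for ccna1 from -0.39 to 1.54, ccna2 from -0.43 to 1.21, ccnb1 from -0.56 to 1.68, ccnb2 from -0.42 to 1.87, ccnb3 from -0.0053 to 0.45, ccne1 from -0.28 to 0.86, ccne2 from -0.17 to 0.0355, cdc7 from -0.11 to 0.81, cdk1 from -0.35 to 1.12 and cdk2 from -0.23 to 0.69. For the mitotic kinases and checkpoint genes they ran, for aurka from -0.35 to 1.54, aurkb from -0.64 to 1.41, plk1 from -0.49 to 1.50, plk4 from -0.52 to 0.47, bub1 from -0.34 to 0.78, bub3 from -0.17 to 0.67 and cdc20 from -0.22 to 1.34. For the centromere, cdca and chromatin genes they ran, for cenpa from -0.10 to 0.69, cenpe from -0.40 to 0.98, cenpn from -0.13 to 0.75, cdca5 from -0.16 to 0.85, cdca7a from -0.89 to 2.15, cdca8 from -0.14 to 0.51, top2a from -0.17 to 0.81 and uhrf1 from -0.0288 to 0.75. For the genes of another role they ran, for cdc73 from -0.14 to 0.16 and mcm3ap from -0.18 to 0.32. The cause was not tested.

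No paired analysis was possible because the control RNAs carry the numbers 2 and 3 and the cadmium RNAs 1 and 2, so the groups share fewer than 2 numbers. With 2 RNAs per group and no signal levels, depth over background could not be judged.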

Other observations

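Control replicate 3 was the higher control for several members in which cadmium replicate 2 was high, at 0.37 for cdc6 and ccna1 and 0.27 for ccna2 and top2a. The median difference between the controls, replicate 3 minus replicate 2, was 0.13 over the 76 genes, 0.29 over the ovary and oocyte markers and 0.00 over all genes. Differences of the dyes over 0.2 in size occurred in 3 members, at 0.39 for orc2, -0.27 for cdca7a and -0.21 for aurkb.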
